A study of Saccharomyces cerevisiae with 24 samples.

Results

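5S ribosomal RNA (rRNA) is the smallest RNA of the large ribosomal subunit, and these data give its coverage and base-calling errors in nanopore direct RNA sequencing of budding yeast, Saccharomyces cerevisiae BY4741. It was taken as every position that the deposited tables list under the reference 5s, which is 1 of 4 rRNAs and 2.21% of 5475 reference positions. Its length equals the length of RDN5-1, 1 of 6 annotated 5S genes on chromosome XII in the R64 gene table. A read cannot be assigned to a particular copy, and no coordinates are given because the genome build of the files is not given in the sources used here. Positions are counted from the 5′ end, and the files write uridine as T.

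5S rRNA is transcribed by RNA polymerase III, whereas 18S, 5.8S and 25S rRNA are cut from a single RNA polymerase I transcript. It binds the proteins Rpl5 and Rpl11 before joining the pre-60S particle and ends in the central protuberance of the mature subunit. Its known modified base in yeast is a pseudouridine (Ψ), an isomer of uridine, at position 50. This site is made by the stand-alone enzyme Pus7 (gene PUS7), which needs no guide RNA and favours a UGUA-like sequence. Most Ψ sites of 18S and 25S are instead chosen by small nucleolar RNAs (snoRNAs). In direct RNA sequencing the RNA strand itself passes the pore, and Ψ is often called as another base, so the share of mismatched reads is used as its readout.

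The sequence of 5S is printed whole, as the files give it, because the 5-mer around Ψ50 occurs again further along the molecule. Capitals mark both copies, and the windows of 11 bases set them side by side with the window around Ψ73 of 5.8S rRNA, whose central 5-mer is in capitals.
5S, whole molecule: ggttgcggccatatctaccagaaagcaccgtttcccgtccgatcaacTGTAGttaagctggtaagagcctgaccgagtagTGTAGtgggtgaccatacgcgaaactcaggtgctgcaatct
5S, positions 45 to 55, around Ψ50: aacTGTAGtta
5S, positions 78 to 88, around position 83: tagTGTAGtgg
5.8S, positions 68 to 78, around Ψ73: gtgAATTGcag
The molecule holds 28 uridines, 30 adenosines, 30 cytidines and 33 guanosines. TGTAG occurs 2 times in 5S, centred on positions 50 and 83, 5 times in 25S, and at no position of 18S or 5.8S.

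The study sequenced 24 libraries in 12 groups of 2 replicates, and all came from the BY4741 background. The strain groups were wild type and knockouts of snR3, snR34 and snR36, in which a kanMX4 cassette had replaced the snoRNA gene. These snoRNAs guide Ψ sites in 18S or 25S and have no known target in 5S. In the gradient groups, untreated wild-type cells given cycloheximide before harvest were lysed, and polysome extracts were parted on sucrose gradients into fractions 1, 2, 3 and 4. The peroxide experiment crossed 1 mM H2O2 for 30 min or no treatment with input RNA or pooled fractions 3-4, also with cycloheximide. Strain and input RNA was purified from cell pellets with a commercial yeast kit and fraction RNA from the extracts. Where fraction RNA is compared with strain or input RNA, gradient and extraction therefore cannot be told apart. The growth protocol names biological duplicates for the gradient cultures. Error features (coverage, mismatch, insertion, deletion, base quality) were available for 20 libraries, since replicate 2 of each strain has pore currents only.

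The libraries differed widely in depth and in how much 5S they held. Mean 5S coverage ran from 63.9 to 16767 reads per position, with a median over libraries of 641 reads. Mean 25S coverage ran from 73 to 14386 reads. Replicate 2 of the peroxide fractions 3-4 stood apart, with 16767 reads over 5S and 485 over 25S. Replicate 2 of fraction 3 was the only other library with more than 2 times as much 5S as 25S coverage. Replicates of one group therefore often differed in depth as well as in 5S content.

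Most 5S reads covered the molecule almost to its 5′ end. Coverage at position 60 was at least 99.9% of each library's maximum, and at position 17 it was still 90.3 to 97.5%. It then fell to 57.4 to 75.8% at position 14, to 31.6 to 52.5% at position 13 and to 1.67 to 6.74% at position 12. The first 12 positions hence had under 10 reads in at least 1 library, and 109 positions, from 13 onward, passed that minimum in all 20. At the 3′ end, where a read begins, coverage at position 118 was 99.3 to 99.6% of the maximum in the strain libraries. It was 89.0 to 94.1% in the inputs and 79.6 to 98.0% in the gradient libraries, and these 3′ values were looked at because they differed, so they carry no test.

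Most of the molecule was read with few errors. Over positions 18 to 115 the median mismatch was 1.82%, the median insertion 3.70%, the median deletion 2.10% and the median base quality 16.8, as coverage-weighted means over the 20 libraries. Replicate 2 of the peroxide fractions 3-4, the deepest library over 5S, weighs most in such means. Mean mismatch was under 5% at 87 positions and over 20% at 7. Of those 7, 3 had at least 10 reads in every library, and they lay together at positions 50, 46 and 51. The other 2 of the 5 most mismatched positions were guanosines 7 (30.5%) and 8 (30.2%), which rested on 236 and 252 reads in all.

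The most frequent deletions lay at the ends of the molecule, and insertions were more scattered. Insertions were most frequent at uridine 12 (16.2%), uridine 48 (13.6%), cytidine 34 (13.2%), guanosine 49 (12.7%) and uridine 43 (10.9%). Deletions were most frequent at guanosine 5 (66.2%), guanosine 7 (63.6%), guanosine 8 (44.0%), cytidine 6 (30.5%) and cytidine 120 (28.4%). Positions 13, 11, 4, 12 and 3 had the lowest base quality, between 3.45 and 4.41. So 2 of the top 5 insertion sites, positions 48 and 49, lay inside the 5-mer of Ψ50, while 4 of the top 5 deletion sites were in the thinly covered 5′ end.

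**Figure D1:**
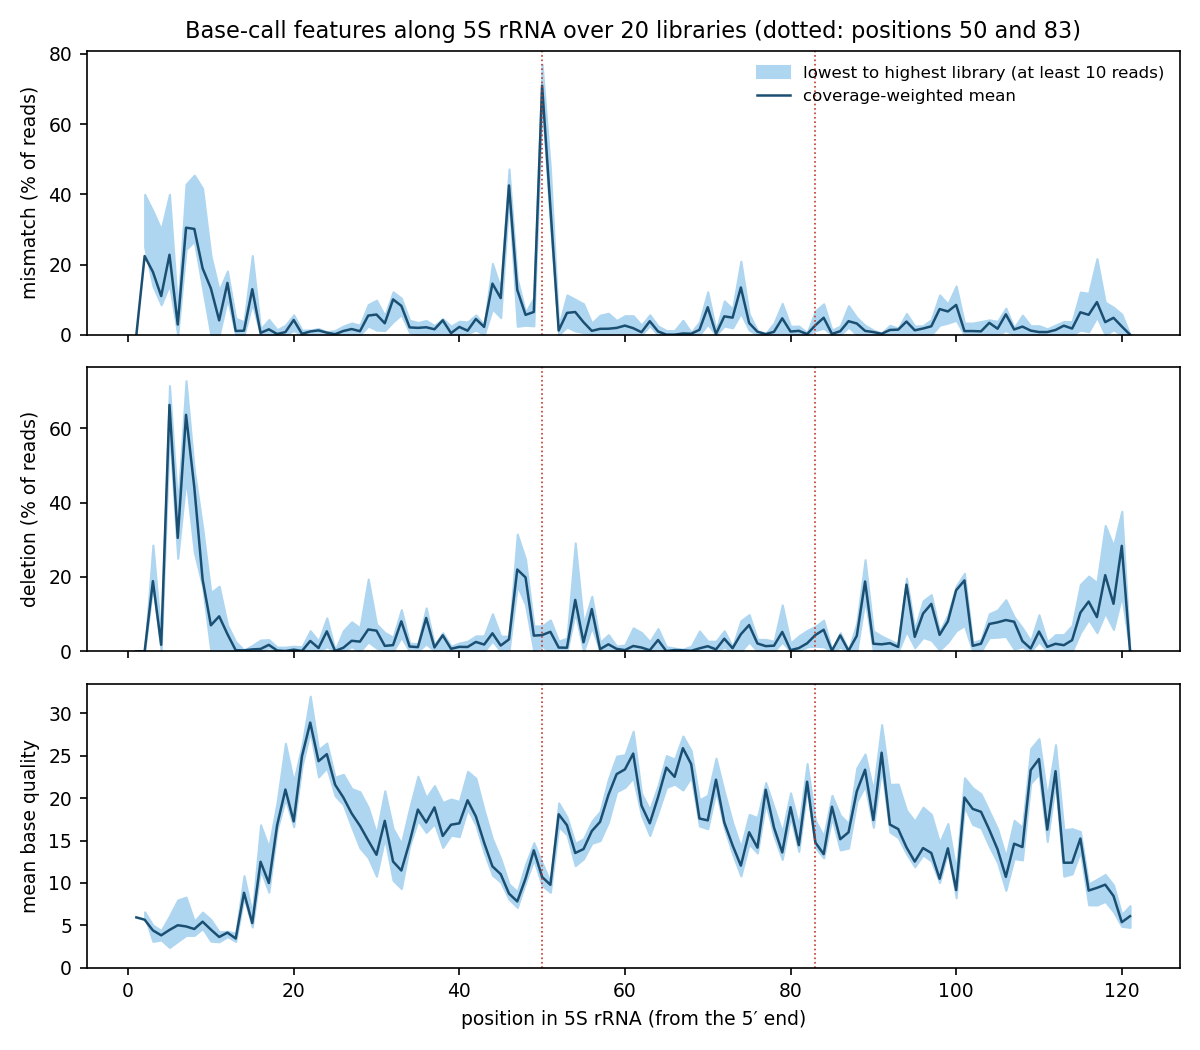
Mismatch and deletion (percent of reads) and mean base quality (deposited score) against position in 5S rRNA. Lines are coverage-weighted means over 20 libraries and bands span the lowest to the highest library with at least 10 reads; mismatch peaks at position 50 (70.9%), with lesser peaks at 46 (42.5%) and 51 (36.3%).

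Ψ50 was called as a mismatch in most reads of every library. Over all libraries the weighted mismatch was 70.9% (46916 reads), and single libraries lay between 66.7 and 77.0%. Replicate 2 of the peroxide fractions 3-4 gave 18984 of these reads, and the median over libraries was 70.8%. Ψ50 ranked first among the 5S uridines in all 20 libraries and at the 98.9th to 99.4th percentile of the uridines of all 4 rRNAs. Uridine 83, at the centre of the same 5-mer, had a mismatch of 1.23 to 6.85%. The difference between the copies was 68.4 ± 2.87 percentage points (SD, n = 20 libraries, range 65.1 to 75.2) and was positive in 20 of 20 libraries (exact two-sided sign-flip permutation test, p = 1.91e-06, the smallest this design can give). That test takes libraries as independent, and with 1 value per group the exact sign-flip permutation p was 0.000488. Base quality was 4.46 lower at position 50 than at position 83 (mean over 20 libraries; exact sign-flip permutation p = 1.91e-06).

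**Figure D2:**
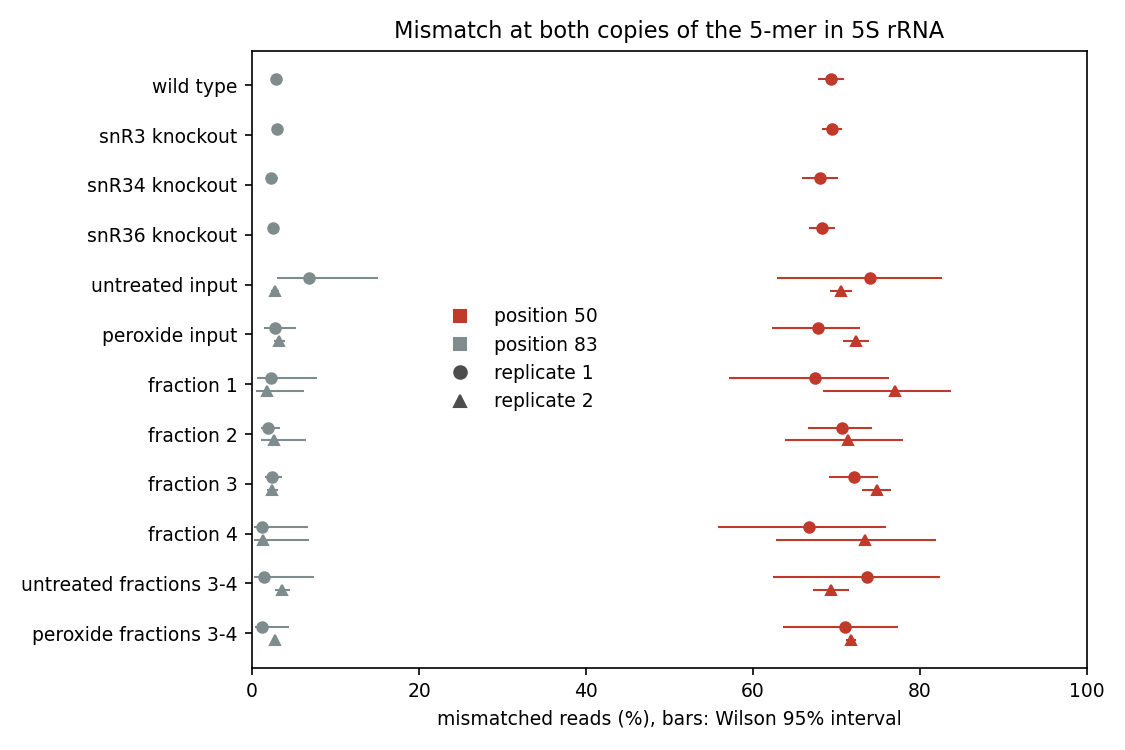
Mismatched reads in percent at positions 50 and 83 of 5S, the centres of both copies of the same 5-mer, by group and replicate, with Wilson 95% intervals. Position 50 lies between 66.7 and 77.0% and position 83 between 1.23 and 6.85%, with no overlap in any library.

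Bases near Ψ50 also miscalled, and those at the second copy did so far less. Mismatch at adenosine 51, just 3′ of Ψ50, was 36.3% (31.5 to 47.2% over libraries), against 4.89% (1.94 to 8.86%) at adenosine 84. Adenosine 46, 4 bases before Ψ50 and outside the shared 5-mer, reached 42.5% (39.2 to 47.2%), whereas adenosine 79 had 4.72%. Cytidine 47 was deleted in 22.0% of reads and uridine 48 in 19.9%. At the second copy, the matching guanosine 80 and uridine 81 were deleted in 0.327% and 0.886%. Guanosine 52, the last base of the 5-mer, had 1.26% mismatch, so errors were not raised evenly over the 5-mer. The windows differ in sequence outside TGTAG, as printed above, and the part of those flanking bases in the error rates was not tested.

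**Figure D3:**
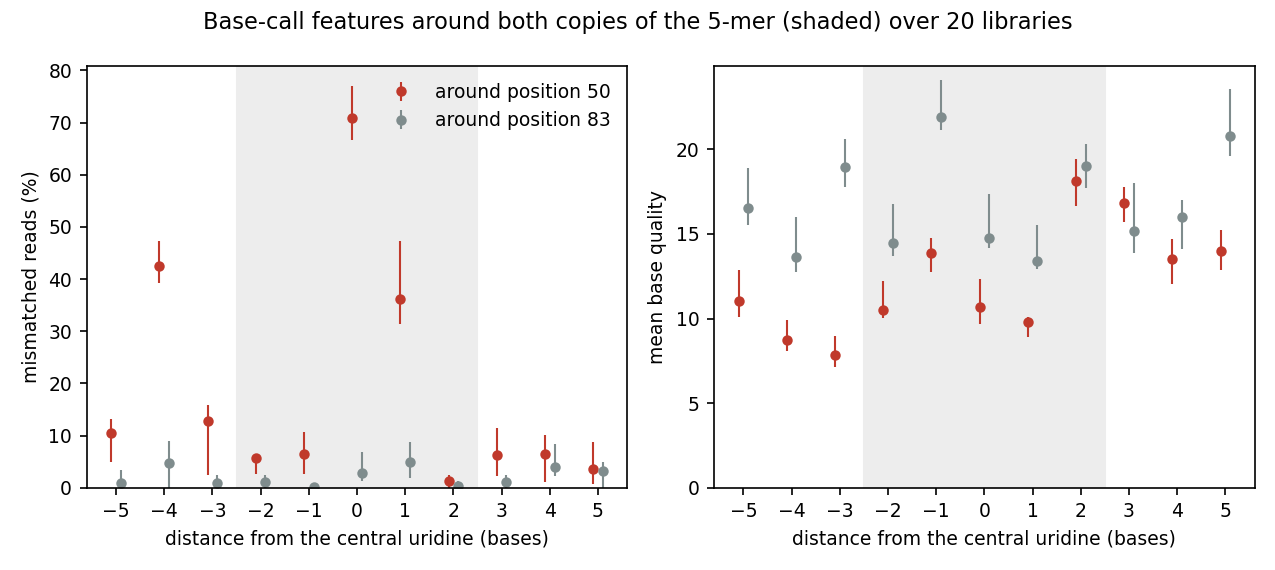
Mismatched reads in percent (left) and mean base quality (right) at each base around positions 50 and 83, against distance from the central uridine. Points are weighted means, bars span the lowest to the highest of 20 libraries, and the shaded bases are the shared 5-mer; the central mismatch is 70.9% at position 50 and 2.76% at position 83.

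By strain, Ψ50 mismatch was 69.4% in wild type (Wilson 95% interval 67.8 to 70.9). It was 69.5% without snR3, 68.1% without snR34 and 68.3% without snR36. All intervals of these 4 libraries overlapped. Such intervals cover counting error only, since reads of 1 library do not show the spread between cultures. With 1 library a strain there was no test.

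No 5S position differed from wild type by 10 percentage points or more in any knockout. This held for mismatch, insertion and deletion at the 110 positions with at least 50 reads in all 4 libraries. Of all 5457 rRNA positions, mismatch passed that size at 0.0916% without snR3, 0.0916% without snR34 and 0.0367% without snR36. Insertion did so at 0.0916, 0.0183 and 0% and deletion at 0.0367, 0.0733 and 0.0183%, in the same order. The largest mismatch differences at well-covered positions were at adenosine 46, which had 46.3% in wild type, 44.0% without snR3, 42.3% without snR34 and 42.3% without snR36. Cytidine 47 moved the other way, from 11.3% in wild type to 13.0, 13.3 and 13.9%. At uridine 12, which had 56 to 168 reads, insertion was 20.5% in wild type and 12.5 to 13.4% in the knockouts, and mismatch was 14.8% in wild type and 10.2% without snR36. The next largest mismatch difference was 2.67 points at cytidine 116 without snR34. Median absolute differences over 5S were 0.213 to 0.264 points, against 0.147 to 0.186 over the other rRNAs.

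The largest deletion difference from wild type lay near the 3′ end in each knockout. Adenosine 118 was deleted in 13.0% of wild-type reads, 17.2% without snR3 and 16.8% without snR36. Cytidine 120 was deleted in 33.4% of wild-type reads and 37.7% without snR34. Guanosine 115 went from 7.13% in wild type to 9.45% without snR3 and 11.0% without snR36. Uridine 48, in the 5-mer of Ψ50, was among the 5 largest deletion differences in all 3 knockouts, with 24.7% in wild type, 22.8% without snR3, 22.2% without snR34 and 22.1% without snR36. None of these differences has a replicate check.

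In the gradient libraries Ψ50 mismatch did not follow fraction number. Fraction 1 had 67.4 and 77.0%, fraction 2 had 70.6 and 71.4%, fraction 3 had 72.1 and 74.8%, and fraction 4 had 66.7 and 73.4%. Both fraction 3 libraries lay above both fraction 2 libraries, and each of these pairs lay within the span of the fraction 1 libraries. The largest difference between group means was 3.45 points (exact permutation test over all splits of 8 libraries into 4 groups, p = 0.876, adjusted p = 1), and it ran from 2.16 to 6.95 points when single libraries were left out. The shallowest of these libraries had 79 reads over the site, which gives intervals about as wide as the differences.

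In the peroxide experiment Ψ50 mismatch lay between 67.8 and 74.0%. Untreated input had 74.0 and 70.6% and peroxide input 67.8 and 72.3%. Untreated fractions 3-4 had 73.6 and 69.4% and peroxide fractions 3-4 had 71.0 and 71.8%. Treated libraries were lower by 1.17 points on average (exact permutation test within input and fractions, p = 0.444, adjusted p = 1). Leaving out single libraries moved this difference between -2.30 points, without replicate 2 of peroxide input, and -0.031 points, without its replicate 1. Fractions 3-4 lay 0.259 points above input (exact permutation p = 1), and the difference changed sign when single libraries were left out. With 36 arrangements the smallest p possible in both comparisons was 0.0556, so neither could have passed 0.05.

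Ψ73 of 5.8S, the site in the most similar short rRNA, was mismatched in 35.1 to 48.8% of reads in the 20 libraries. That range lay wholly below the range of Ψ50.

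5S coverage relative to 25S varied less in total RNA than in the gradients. Mean 5S coverage divided by that of 25S came to 0.371 in wild type, 0.327 without snR3, 0.232 without snR34 and 0.262 without snR36. Untreated input gave 0.0718 and 0.385, and peroxide input 0.241 and 0.332. None of the 8 total RNA libraries exceeded 0.385, whereas 5 of 12 gradient libraries had more 5S than 25S coverage. More 5S and less 25S in a library cannot be told apart in a ratio of reads.

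Along the gradient, fraction 1 gave 5S ratios of 1.07 and 1.26, fraction 2 gave 0.0419 and 0.121, fraction 3 gave 0.573 and 6.20, and fraction 4 gave 0.720 and 0.0157. Both fraction 1 libraries lay above both fraction 2 libraries, while fractions 3 and 4 were divided by 10.8 and 45.8 times between their own replicates. The spread of group means was 4.73 log2 units and did not exceed the scatter of replicates (exact permutation test, p = 0.305, adjusted p = 0.667). Untreated fractions 3-4 gave 0.0999 and 1.03. Peroxide fractions 3-4 gave 0.0960 and 34.5, a difference of 360 times within a group.

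Ordered by mean log2 ratio (± SD, n = 2), fraction 2 was lowest at -3.81 ± 1.08, before fraction 4 at -3.23 ± 3.90 and untreated input at -2.59 ± 1.71. Peroxide input at -1.82 ± 0.33, untreated fractions 3-4 at -1.64 ± 2.38 and fraction 1 at 0.22 ± 0.16 came next. Peroxide fractions 3-4 at 0.86 ± 6.00 and fraction 3 at 0.91 ± 2.43 were highest. Each neighbouring pair in this order differed by less than the larger SD of the pair.

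**Figure D4:**
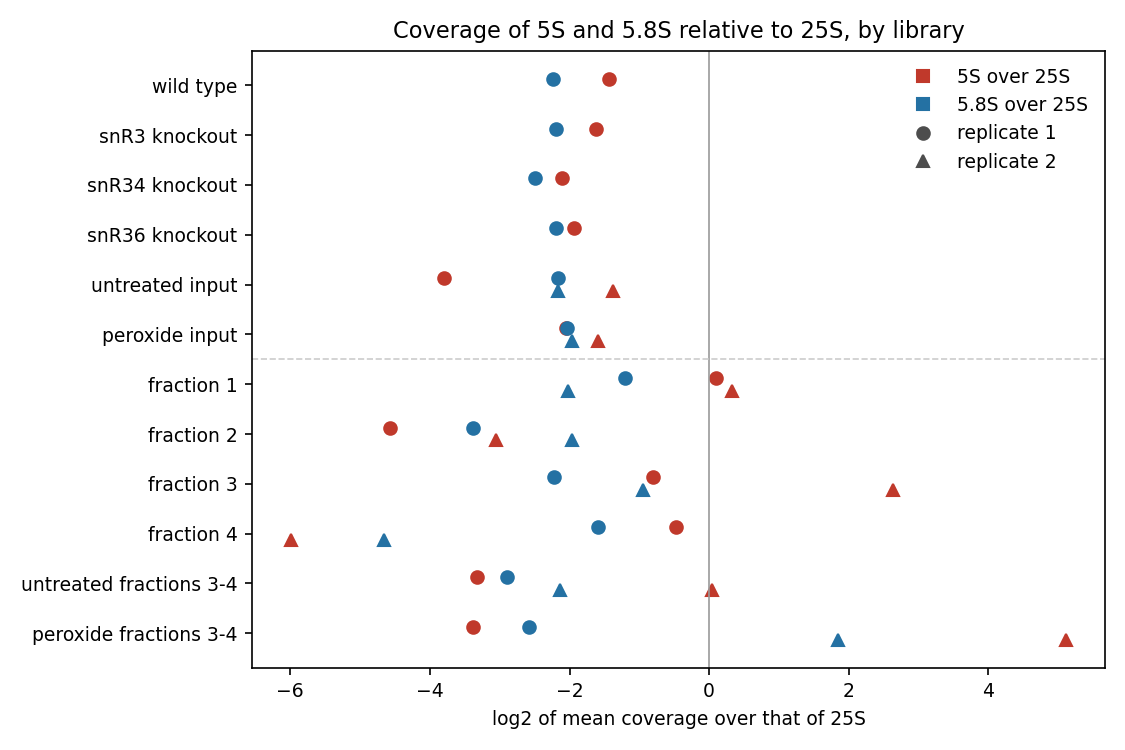
Log2 of mean 5S coverage over mean 25S coverage (red) and of 5.8S over 25S (blue), by group; circles are replicate 1 and triangles replicate 2, and the dashed line parts total RNA from gradient libraries. Total RNA libraries stay at or below a 5S ratio of 0.385 (log2 -1.38), and gradient libraries run from 0.0157 to 34.5.

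None of the coverage comparisons passed its test. Peroxide-treated libraries were higher by 1.64 log2 units (exact permutation p = 0.667), and lower by 0.49 when replicate 2 of the peroxide fractions 3-4 was left out. Fractions 3-4 were above input by 1.82 log2 units (exact permutation p = 0.500), or below it by 0.30 without that library. The 12 gradient libraries exceeded the 8 total RNA libraries by 0.87 log2 units (exact permutation, p = 0.462). Without both libraries whose 5S coverage was over 5 times that of 25S, a choice made after their values were seen, that difference was -0.12. All 4 coverage tests had an adjusted p of 0.667.

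5.8S, which is base-paired to 25S in the ribosome, varied less than 5S. Its ratio to 25S ran from 0.0397 to 3.59, against 0.0157 to 34.5 for 5S, and 18S over 25S stayed between 0.786 and 1.78. In the total RNA libraries 5.8S lay between 0.178 and 0.257. In 7 of 8 groups the replicate with the higher 5S ratio also had the higher 5.8S ratio, and both shared their 25S denominator. In 2 of the 7 the 5.8S ratios were nearly equal, since replicates of untreated input differed 1.01 times in 5.8S and 5.36 times in 5S, and those of peroxide input 1.06 and 1.38 times. The library with the highest 5S ratio also had the highest 5.8S ratio, and the library with the lowest had the lowest.

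Mismatch, insertion and base quality over the whole 5S molecule overlapped between the gradient fractions, and deletion did so only in part. The coverage-weighted 5S mismatch of all 20 libraries lay between 3.45 and 4.70%. In fraction 1 it was 4.22 and 4.42%, in fraction 2 it was 4.70 and 4.06%, in fraction 3 it was 4.37 and 4.18%, and in fraction 4 it was 4.43 and 4.21%. Deletion was 4.56 and 4.54% in fraction 1, above every library of the later fractions. It was 4.48 and 4.30% in fraction 2, 4.33 and 4.06% in fraction 3, and 4.17 and 4.17% in fraction 4. Mismatch, insertion and base quality gave exact permutation p-values of 0.962, 0.876 and 0.943, and deletion gave 0.114 (adjusted p = 0.533 over 12 tests of error features). The deletion test reached an exact permutation p of 0.0286 without replicate 1 of fraction 3 and 0.0476 without its replicate 2, unadjusted.

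With peroxide, 5S base quality was higher in both treated input libraries than in both untreated ones. Mean 5S base quality was 16.1 and 16.1 in untreated input and 18.4 and 16.7 in peroxide input, and 17.2 and 16.0 in untreated fractions 3-4 and 18.1 and 16.3 in peroxide fractions 3-4. In fractions 3-4 the treated and untreated values overlapped. Compared by replicate number, treated libraries had higher quality and lower mismatch, insertion and deletion than their untreated partners in 4 of 4 pairs. Over both, treated libraries were higher by 1.02 in quality and lower by 0.49 points in mismatch, 0.22 in insertion and 0.60 in deletion (exact permutation p = 0.222 each, adjusted p = 0.533). With the replicate number as a block the exact permutation p was 0.125 each, the smallest that fit can give. Leaving out single libraries moved quality between 0.56 and 1.47, mismatch between -0.72 and -0.26 points, insertion between -0.36 and -0.082 and deletion between -0.92 and -0.29. Quality and deletion were nearest 0 without replicate 1 of peroxide fractions 3-4, mismatch without replicate 1 of peroxide input and insertion without replicate 2 of untreated fractions 3-4. These 4 features come from the same reads and are not independent of each other.

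Set against 25S of the same library, quality, mismatch and deletion separated treated from untreated libraries in both input and fractions 3-4, and insertion did so in input alone. Base quality of 5S minus that of 25S was -1.68 and -1.04 in untreated input, and 0.68 and -0.04 in peroxide input. It was 0.11 and -1.44 in untreated fractions 3-4, and 0.22 and 1.35 in peroxide fractions 3-4. Treated libraries therefore lay above the untreated ones in both pairs of groups, by 1.56 on average (exact permutation p = 0.0556, the smallest possible here and unadjusted). Relative mismatch was lower by 0.67 points and relative deletion by 0.94 points with the same p (exact permutation, p = 0.0556 each). Relative insertion was lower by 0.33 points (exact permutation p = 0.167), with -1.73 and -1.11 points in untreated and -1.69 and -1.61 in peroxide fractions 3-4. In replicate 2 of the peroxide fractions 3-4 it was 25S that was low, since its 25S quality of 14.9 was the lowest of all 20 libraries. Its 25S mismatch of 5.13% and deletion of 6.86% were the highest of the 8 libraries of the experiment. Its 5S mismatch of 4.46% and deletion of 4.69% lay between the values of both untreated fractions 3-4 libraries. The untreated strain libraries, outside this experiment, had relative qualities of -0.46 to -0.09, between the untreated and the treated inputs. Libraries of fractions 1 to 4, also untreated and outside it, ran from -1.26 to 0.99 in relative quality. Their relative mismatch ran from -2.26 to 0.28 points and their relative deletion from -1.83 to -0.69 points. These untreated ranges overlapped the values of the treated libraries.

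**Figure D5:**
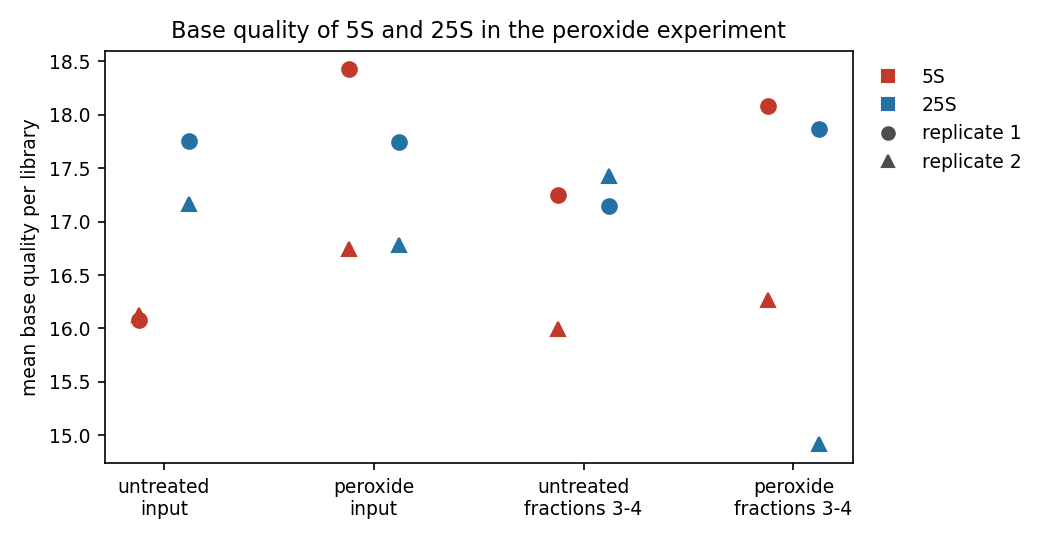
Mean base quality (deposited score) of 5S (red) and 25S (blue) in the 8 libraries of the peroxide experiment; circles are replicate 1 and triangles replicate 2. 5S quality is 16.1 in both untreated inputs and 18.4 and 16.7 in the treated ones, while the 25S values of the input groups overlap.

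Position by position, the higher 5S base quality of treated input extended over most of the molecule. Base quality was higher in both peroxide inputs than in both untreated inputs at 80 of 109 5S positions (73.4%), against 5.46% of all 5425 rRNA positions. No 5S position was lower in both, against 15.5% of all positions. Deletions were lower in both treated inputs at 31 positions (28.4%, background 8.77%), mismatches at 27 (24.8%, background 6.99%) and insertions at 26 (23.9%, background 7.43%). Positions share reads, so these counts describe 4 libraries and are not separate observations. In fractions 3-4, quality was higher in both treated libraries at 15 of 109 positions (13.8%, background 8.2%) and mismatch lower at 24 (22.0%, background 13.3%). Insertion was lower in both at 21 positions (19.3%, background 14%) and deletion at 16 (14.7%, background 14%), which is near the background.

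No single 5S position passed the test of mismatch in any comparison. The quasi-binomial fit, with dispersions moderated by limma, called 0 of 109 5S positions at an adjusted p of 0.05 in each of 5 comparisons, and 0% of all positions tested. At an unadjusted p under 0.05, 6 of the 109 passed between fractions, against 15.5% of all positions. For peroxide in input 19 passed, 15 of them lower in treated libraries, against 3.15% of all positions. For peroxide in fractions 3-4 17 passed (background 2.93%), of which 10 were lower and 7 higher in treated libraries. Depth was unlike there, since replicate 2 of the peroxide fractions 3-4 had a mean of 16767 reads over 5S and 485 over 25S. The part of depth in these counts was not tested. Fractions 3-4 against input gave 3 untreated (background 2.14%) and 20 with peroxide (background 3.61%), of which 17 were higher in the fractions. limma on empirical logits, fitted as a second method, also called 0 in each comparison.

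These unadjusted counts changed with single libraries. The share over all positions changed in the same fits, each of which left 1 library in a group. Without replicate 2 of untreated input the 19 positions for peroxide in input became 0, and without replicate 2 of untreated fractions 3-4 the 17 positions for peroxide in fractions 3-4 became 0. The 17 also fell without replicate 2 of untreated input, of peroxide input or of peroxide fractions 3-4. The 19 became 11 without replicate 2 of peroxide input. For fractions 3-4 against input with peroxide, the 20 fell without replicate 2 of untreated input, of peroxide input or of peroxide fractions 3-4. Without the last of these, the 5S share did not exceed that of all positions, here or for peroxide in fractions 3-4. The 6 between fractions became 0 without replicate 1 of fraction 2. The 3 for untreated fractions 3-4 against input ran from 0, without replicate 2 of untreated input, to 7, without replicate 2 of peroxide fractions 3-4. In untreated input and untreated fractions 3-4, replicate 1 had 72 or 73 reads at Ψ50.

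The position with the lowest p differed from comparison to comparison. Between fractions it was adenosine 117, with mismatches of 17.5 and 18.3% in fraction 1, 5.52 and 11.3% in fraction 2, 9.43 and 13.4% in fraction 3 and 19.7 and 12.0% in fraction 4 (quasi-binomial adjusted p = 0.307). For peroxide in input it was uridine 54, 4 bases after Ψ50, with 8.22 and 8.37% in untreated and 4.05 and 4.68% in treated libraries (quasi-binomial adjusted p = 0.179). The untreated and treated values did not overlap, but the position was picked for its low p, so this adds no support. Uridine 54 no longer had the lowest p without replicate 2 of untreated input or of peroxide input. For peroxide in fractions 3-4 it was cytidine 120, with 2.99 and 4.88% in untreated and 0.813 and 1.92% in treated libraries (quasi-binomial adjusted p = 0.139).

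Fractions 3-4 against input gave its lowest p in untreated cells at guanosine 112, with 2.82 and 2.55% in input and 0 and 1.05% in the fractions (quasi-binomial adjusted p = 0.999). With peroxide it was guanosine 115, with 5.07 and 10.6% in input and 5.66 and 5.37% in the fractions (quasi-binomial adjusted p = 0.200), and there the groups overlapped. Of 72 reads at position 112 none was mismatched in replicate 1 of untreated fractions 3-4, which allows a share of up to 4.17%.

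Adenosine 51, beside Ψ50, had 47.2 and 39.1% mismatch in untreated and 35.2 and 34.1% in peroxide-treated fractions 3-4. The unadjusted p was 0.00176 and the adjusted p 1 (quasi-binomial fit with limma's moderated dispersion). In input RNA the same base had 43.8 and 36.6% untreated and 35.9 and 36.8% treated, so those groups overlapped. Ψ50 itself had an adjusted p of 0.541 between fractions and of 0.998 for peroxide in input by the same quasi-binomial fit.

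Pore current over 5S was measured in 1 library a strain. The tables give a mean event level in picoampere (pA) for each 5-mer, and replicate 1 of the strains held 106 to 116 5S 5-mers, whereas replicate 2 held 0 in every strain. The 106 5-mers present in all 4 replicate 1 libraries began at positions 12 to 117, with levels from 63.5 to 132 pA. At the 5-mer TGTAG starting at position 48, with Ψ50 at its centre, the level was 107 pA in wild type, 99.7 pA without snR3, 113 pA without snR34 and 109 pA without snR36. At the same 5-mer starting at position 81 it was 108, 111, 113 and 110 pA. The levels of the copies thus differed by 0.039 to 11.4 pA within a strain, with the largest gap in the snR3 knockout.

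Current levels of 5S scattered more between libraries than those of the other rRNAs. The median absolute difference from wild type over 5S 5-mers was 1.72 pA without snR3, 2.12 pA without snR34 and 2.06 pA without snR36. It was 0.446 to 0.504 pA over 5.8S and 0.0514 to 0.0762 pA over 18S and 25S. The number of reads behind a current level is unknown, so these differences have neither an interval nor a test.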

How the data were processed

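The members and lists used here were chosen with earlier results of these data known. Per the file headers, coverage was deposited as an unnormalized read count at each position. Mismatch, insertion and deletion are deposited as a fraction of those reads, and base quality was deposited as a mean score. Multiplied by coverage, 100% of the fractions gave whole reads (tolerance 0.001). The current level is a deposited signal in pA per 5-mer. File names credit EpiNano and Nanopolish, and how bases were called and reads aligned is not given in the sources used here.

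Means over 5S were weighted by coverage, and coverage ratios used mean coverage. Single values were compared by exact two-sided permutation over libraries, with Benjamini-Hochberg adjustment within coverage (4 tests), error features (12) and Ψ50 (3). Mismatched reads per position were fitted by a quasi-binomial model with at least 10 reads in every library of the experiment, all groups of an experiment together. Dispersions were moderated with limma's squeezeVar and floored at 1, and p-values were adjusted over all rRNA positions at 0.05. On simulated data this test made too many calls where extra variance grew with depth. In the strains, 50 reads were required. Intervals are Wilson 95% intervals and, like the limit of 3 counts for a share of 0, cover counting error only.

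Same-numbered libraries deviated together from their group means, with correlations over rRNA positions of 0.280 to 0.530 in the fractions and 0.110 to 0.536 in the peroxide experiment. The main tests and fits did not pair libraries by replicate number, and a replicate block was run only as an alternative. No pair of libraries was taken for a repeated deposit. The planned limma test of 5S currents had no replicate to use and was left out. Named positions were Ψ50 and its 5-mer, the second copy, the 5 highest for each error type, the 5 of lowest quality, the lowest p of each comparison and the 5 largest strain differences. Versions were limma 3.58.1 in R 4.3.3, and scipy 1.17.1, numpy 2.4.6, matplotlib 3.10.9 and pandas 2.3.3 in Python 3.11.15.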

Additional observations from a re-analysis of the deposited data

How the results depend on the processing

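The peroxide comparisons and those of fractions 3-4 against input could not pass 0.05 under any setting, since their smallest possible p was 0.0556, or 0.125 with a replicate block, so staying above it shows no stability. Between fractions, and for gradient against total RNA, no other weighting, reference molecule or error measure gave an exact permutation p below 0.05. Other minimums of reads could not change the Ψ50 tests, since every library had at least 72 reads there. Error rates at Ψ50 stood above those of the second copy, or of all other 5S uridines, under each alternative that used an error rate. Base quality, run in place of mismatch, was lower at Ψ50 than at the second copy. A replicate block leaves the log2 coverage differences (1.64 for peroxide, 4.73 for fractions) as they are by construction, so their staying the same shows no stability. With that block 0 5S positions were called in each comparison. Fractions 3-4 against input turned sign for 5S mismatch relative to 25S (-0.11 against 0.086 points) and for Ψ50 with all error types summed (-0.39 against 0.26). Deletion in that comparison, close to 0 at -0.00049 points, became 0.055 unweighted, 0.012 without positions 48 to 52 and 0.15 without the first and last 20 positions. The gradient difference in coverage became -0.12 without both libraries richest in 5S. The cause of these turns was not tested.

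Leaving out 1 library at a time, the log2 coverage difference ran from -0.49 to 3.76 for peroxide, from -0.30 to 3.94 for fractions 3-4 against input, from 0.31 to 1.32 for gradient against total RNA and, as a spread, from 4.03 to 6.90 between fractions. For fractions 3-4 against input, mismatch ran from -0.14 to 0.32 points, deletion from -0.31 to 0.31, base quality from -0.40 to 0.51 and Ψ50 from -0.88 to 1.40. The deletion spread between fractions ran from 0.37 to 0.50 points. Some fits without 1 library of the peroxide fractions 3-4 called 5S positions. Their counts are not given, since that group is left with a lone library, which is then assumed to vary like the other groups. Without replicate 1 of the peroxide fractions 3-4, most of the called positions lay outside 5S. Current alternatives were not run, since replicate 2 held no 5S 5-mers.

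Libraries with 72 to 89 reads over Ψ50 limit differences there to about the width of their intervals, which span 55.9 to 76.0% in replicate 1 of fraction 4.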

Other observations

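Of the 5 copies of TGTAG in 25S, the copy centred on position 1890 had a mismatch of 71.5 to 85.9% over the 20 libraries (median 79.7%), above Ψ50 of 5S by its median. The copies centred on 536, 2046, 2070 and 2455 had medians of 4.08, 10.9, 4.67 and 8.90%, nearer the 2.45% of uridine 83 in 5S. No annotation of position 1890 was used here.

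Coverage at the last base of 5S was below the maximum in all 20 libraries. It stood at 74.4 to 77.2% of the maximum in the strain libraries, 57.1 to 68.4% in the inputs and 52.7 to 75.0% in the gradient libraries. This measure was chosen after its values were seen.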
